A study of Mus musculus with 40 samples.

Results

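Srf, Acta2, Myl9, Tagln, Cnn1, Cnn2, Tpm1, Tpm2, Vcl and Actn1 are genes of the smooth muscle contractile apparatus and of the actin cytoskeleton that are widely cited as targets of serum response factor, together with the gene of that factor. They were taken as a named list and matched by symbol, and all 10 were found among the 55276 symbols of the genotype and time course tables and the 55291 symbols of the Pramel7 table. The list was chosen by results of these data that were already known, among them the higher Tagln of Dux knockout cells in the genotype table. That contrast is therefore given as a description, with no test.

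RNA sequencing was done in E14tg2a, a mouse embryonic stem cell line grown with serum and LIF, in 34 libraries. The genotype table held 12 libraries, 2 each of WT, CtbpDKO (double knockout of Ctbp, corepressors that bind DNA-bound factors), DuxKO (knockout of Dux, a factor of the early embryonic programme), Ctbp_DuxTKO, Dppa2KO (knockout of Dppa2, an early embryonic chromatin gene) and Ctbp double knockout cells that also lack Dppa2. The last group reads DKO_Dppa2_KO in its column and description but Dppa2_DuxTKO in its title and genotype fields, and it is called DKO_Dppa2_KO here. The Pramel7 table held 12 further libraries: WT replicates 3 to 6, DuxKO replicates 3 and 4, and 2 each of P7KO (Pramel7 knockout), P7OE (Pramel7 overexpression) and DuxKO_P7OE. The time course held 10 libraries of CtbpDKO cells labelled Dox, 2 at each of days 0, 3, 9, 12 and 18. Their columns and descriptions read iCt2 with the day. The labels name no clone, promoter or separate culture, so p-values measure only the spread between these libraries, which may be technical. Another 6 bisulfite libraries were not analysed here.

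Serum response factor binds a short A- and T-rich DNA element, the CArG box, and is switched between gene sets by its partners. With the ternary complex factors it acts on growth-factor immediate early genes, and with the myocardin-related factors, which enter the nucleus when free actin monomers run low, it acts on genes of actin filaments, contractile proteins and cell adhesions. In smooth muscle the second set is held high by myocardin, whereas pluripotent stem cells use the broadly expressed members of it in their ordinary cytoskeleton.

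The CArG box (2 C, then 6 bases that are each A or T, then 2 G) reads as the same kind of motif on both strands and was searched in the 250 bases before the start site of each gene in RefSeq promoters of GRCm38.p6, the assembly of mm10. It was found in the promoters of Srf, Vcl, Cnn2 and Myl9, which are 4 of the 9 members with an entry, whereas 482 of 32851 promoters of the table held it (1.47%). Acta2, and a second site of Myl9, held the motif with 1 of the 6 inner bases replaced by G or C, a version looked for after the sequences had been seen and held by 7.24% of all promoters. The list was named for targets of the factor that binds this element, so the share among members is not independent of the choice. The windows around the matches are shown because the element is what the factor reads. They are written on the strand of the gene, with each match in capitals.
Srf, chr17:46556215-46556244, minus strand: CCATATAAGGagcggcctcgCCATAAAAGG
Vcl, chr14:20929148-20929205, plus strand: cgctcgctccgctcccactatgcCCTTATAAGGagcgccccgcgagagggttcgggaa
Cnn2, chr10:79988519-79988578, plus strand: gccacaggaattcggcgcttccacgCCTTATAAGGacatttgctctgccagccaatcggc
Myl9, chr2:156775278-156775399, plus strand: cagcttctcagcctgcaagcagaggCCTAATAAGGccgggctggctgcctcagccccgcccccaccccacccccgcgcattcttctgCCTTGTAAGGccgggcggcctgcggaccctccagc
Acta2, chr19:34255438-34255467, minus strand: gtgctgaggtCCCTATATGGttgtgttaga
Acta2, chr19:34255388-34255417, minus strand: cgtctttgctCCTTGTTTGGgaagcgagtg
Srf carried 2 boxes in 30 bases. In Vcl and Cnn2 the same 10 letters stood at different distances, with first bases at -227 and -56 counted from the start site. Matches in Acta2 began at -84 and -34, and in Myl9 at -161 and -99. Positions are counted from the start site of the promoter entry, which can differ from the end of the gene span given below. The windows of Srf and Acta2 thus lie inside their gene spans. The promoters of Cnn1, Tpm1, Tpm2 and Actn1 held neither version in this window, and Tagln is named only. On GRCm38.p6 the gene spans are chr9:45929628-45936058 for Tagln, chr19:34240336-34255585 for Acta2, chr9:22099221-22109221 for Cnn1, chr10:79988600-79995400 for Cnn2, chr2:156775408-156781657 for Myl9, chr9:67022590-67049672 for Tpm1, chr4:43513726-43523583 for Tpm2, chr12:80167542-80260420 for Actn1, chr14:20929383-21033676 for Vcl and chr17:46546838-46558267 for Srf.

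Total counts were 19944644 to 36025046 in the genotype table, 10123058 to 30135341 in the Pramel7 table and 16674526 to 30169626 in the time course. Levels below are CPM, counts scaled to the size of each library with TMM factors, and were not compared between genes, whose lengths differ. Each table was fitted alone, so levels set across tables are side by side only. Ctbp1 had 0 to 4 counts in each library labelled CtbpDKO, Ctbp_DuxTKO, DKO_Dppa2_KO or Dox, and Ctbp2 was 36.5 to 43.8 CPM in those knockouts of the genotype table against 187 to 236 CPM in the other groups. Duxf3, the Dux gene of the tables, had 0 counts in every library labelled DuxKO, Ctbp_DuxTKO or DuxKO_P7OE. In WT it had only 0 or 1 in the genotype table and 0 to 2 in the Pramel7 table, too few to check the DuxKO labels. Its counts were 40 and 24 in CtbpDKO, above Ctbp_DuxTKO, but 17 and 1 in P7OE, the group beside DuxKO_P7OE. Duxf3 was also at 0 counts in Dppa2KO and DKO_Dppa2_KO, so it cannot settle which label of the latter holds. Dppa2 was 57.3 and 60.9 CPM in WT and 33.3 and 29.1 CPM in Dppa2KO, with 21.3 and 19.7 CPM in DKO_Dppa2_KO. Pramel7 was 14.04 and 26.2 CPM in P7OE and 49.3 and 56.7 CPM in DuxKO_P7OE, but 2 to 4 counts in WT and 0 and 3 in P7KO, too few to check the knockout label. Among the 4 WT libraries of that table, replicates 3 and 4 stood above replicates 5 and 6 for Tagln, Cnn1, Cnn2, Tpm1, Srf and Acta2, and comparisons with WT are given with each pair alone where that changed a call.

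Markers of pluripotency were high, and those of mature smooth muscle were mixed, some near 0 and some not. Pou5f1, a defining factor of pluripotency, lay between 496 and 1123 CPM over the tables. Myh11, the smooth muscle myosin heavy chain, did not pass 1.02 CPM in any library, and Myocd, the myocardin gene, did not pass 1.75 CPM. Kcnmb1 had at most 6 counts. Among the 7 mature smooth muscle markers, Smtn and Des reached 48.4 and 31.6 CPM. The 7 together summed to 41.2 to 63.9 CPM in the genotype table, 17.8 to 48.4 CPM in the Pramel7 table and 53.2 to 72.1 CPM in the time course. In these bulk libraries, fewer cells with a transcript and less of it per cell cannot be told apart.

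Most members lay far below WT of the same table in both groups with overexpressed Pramel7. Side by side only, WT of the genotype table was lower for some members, such as Tpm1 (36.4 and 39.0 CPM) and Cnn2 (35.5 and 35.2 CPM). For others, such as Actn1 (108 and 122 CPM), WT of the 2 tables overlapped. In P7OE against WT, 8 of 10 members passed the test, each lower, where 8.90% of 20161 tested genes were lower. A gene passed at an adjusted p under 0.05 by the quasi-likelihood test of edgeR, with p adjusted over every gene of the table after Benjamini and Hochberg. The members' median log2 fold change was -1.90, against -0.01 over all tested genes. Against WT replicates 3 and 4 alone 10 passed, and against 5 and 6 alone 8. Without P7OE replicate 1, 5 passed, with Srf, Myl9 and Cnn1 lost. Tagln had the largest fitted fall of the 8 and Srf the smallest.

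**Figure D1:**
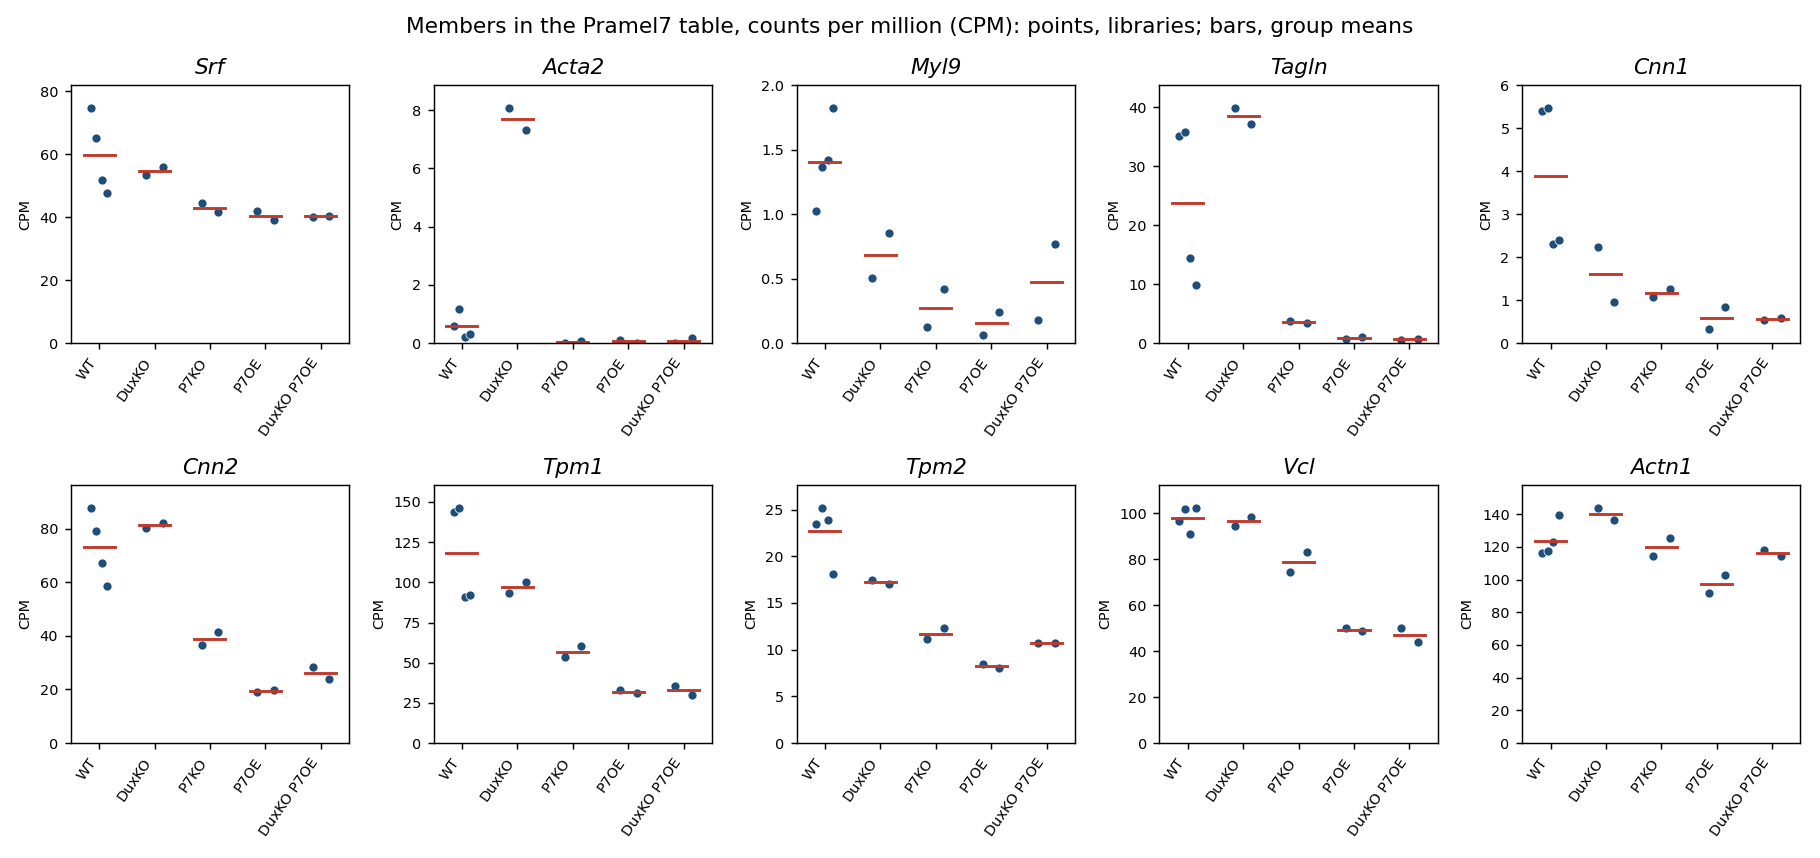
CPM of each member (panels, linear axes from 0) in the 12 libraries of the Pramel7 table, by group; points are libraries and red bars are group means. Tagln was 0.642 to 1.095 CPM in the 4 libraries with overexpressed Pramel7, 3.38 and 3.71 CPM in P7KO, and 9.92 CPM or more in every WT and DuxKO library.

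Srf, the transcription factor, was 74.5, 65.1, 51.9 and 47.8 CPM in WT replicates 3 to 6 and 41.8 and 39.2 CPM in P7OE. The groups did not overlap, and the drop was small, 0.56 on the log2 scale (SE 0.16, adjusted p = 0.0279). It missed the threshold without WT replicate 4 (-0.51, adjusted p = 0.068), without P7OE replicate 1 (-0.62, adjusted p = 0.127), without P7OE replicate 2 (-0.50, adjusted p = 0.23) against WT replicates 5 and 6 alone (-0.32, adjusted p = 0.0583), and with only the groups compared in the fit (-0.56, adjusted p = 0.0937). Its call thus rested on single libraries.

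Tagln, which encodes the actin-binding protein transgelin (SM22), was 35.1, 35.8, 14.4 and 9.92 CPM in WT replicates 3 to 6 and 0.807 and 1.095 CPM in P7OE. Every P7OE library was below every WT library, by 25.7-fold in the fit (log2 fold change -4.68, SE 0.56, adjusted p = 0.000122). The WT libraries fell in pairs, with replicates 3 and 4 above replicates 5 and 6. Against replicates 5 and 6 alone the fold change was -3.74 and against replicates 3 and 4 alone -5.31, and Tagln kept its call in each of the 12 alternatives computed.

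Acta2, the smooth muscle actin, was near the limit of counting in most libraries. It had 16, 29, 6 and 7 counts in WT and 4 and 0 in P7OE, equal to 0.231 to 1.17 CPM against 0 to 0.129 CPM. The groups did not overlap, but the fitted change of -2.75 (SE 0.95) missed the threshold (adjusted p = 0.0574). It passed with DESeq2 (adjusted p = 0.0139), without the filter on low counts (adjusted p = 0.000702), against WT replicates 3 and 4 alone (-3.38, adjusted p = 0.00585), and without WT replicate 5 (-3.05, adjusted p = 0.0337) or replicate 6 (-2.93, adjusted p = 0.0383).

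Myl9, the regulatory light chain of smooth and non-muscle myosin, had 27, 34, 37 and 40 counts in WT and 2 and 4 in P7OE. It was lower by 3.33 on the log2 scale (SE 0.75, adjusted p = 0.00789). Without P7OE replicate 1 the change was -2.51 and missed the threshold (adjusted p = 0.124), and without P7OE replicate 2 it was -4.32.

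The calponins bind actin filaments and restrain myosin. Cnn1, the smooth muscle form, was 5.41, 5.46, 2.31 and 2.41 CPM in WT and 0.323 and 0.852 CPM in P7OE (log2 fold change -2.83, SE 0.57, adjusted p = 0.00394). Without P7OE replicate 1 it missed the threshold (-2.19, adjusted p = 0.0775), and without P7OE replicate 2 the change was -3.57. Cnn2, the broadly expressed form whose promoter holds a CArG box, was 87.7, 79.3, 67.1 and 58.8 CPM in WT and 19.2 and 19.7 CPM in P7OE. The Cnn2 groups stood well apart, 3.77-fold in the fit (log2 fold change -1.91, SE 0.17, adjusted p = 1.07e-05).

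The tropomyosins run along actin filaments and gate myosin access. Tpm1 was 144, 146, 91.1 and 92.4 CPM in WT and 32.8 and 30.9 CPM in P7OE, 3.71-fold lower (log2 fold change -1.89, SE 0.21, adjusted p = 8e-05). Tpm2 was 23.5, 25.1, 23.9 and 18.2 CPM in WT and 8.45 and 8.03 CPM in P7OE, 2.75-fold lower (log2 fold change -1.46, SE 0.16, adjusted p = 5.78e-05). Tpm1 repeated the split of the WT libraries seen for Tagln, and Tpm2 did not. Both stayed below WT, with the call kept, in each of the 12 alternatives computed.

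The adhesion genes differed from each other. Vcl encodes vinculin, which ties actin to integrin and cadherin adhesions, and it was 96.4, 102, 91.1 and 102 CPM in WT and 49.95 and 48.7 CPM in P7OE. The WT libraries agreed closely for Vcl, and the drop was 1.98-fold (log2 fold change -0.99, SE 0.12, adjusted p = 9.85e-05). Actn1, the non-muscle alpha-actinin that crosslinks actin filaments, was 116, 117, 123 and 139 CPM in WT and 91.9 and 103 CPM in P7OE. Its change of -0.35 (SE 0.12) missed the threshold (adjusted p = 0.0529). It passed with DESeq2 (adjusted p = 0.0264), against WT replicates 3 and 4 alone (adjusted p = 0.0301) or 5 and 6 alone (adjusted p = 0.0158), and without WT replicate 3 (adjusted p = 0.0389) or 5 (adjusted p = 0.0491).

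Members were also lower when Pramel7 was overexpressed in cells without Dux. In DuxKO_P7OE against DuxKO, 6 of 10 members passed, each lower, against 9.83% of genes lower in the table, with a median of -1.25. Tagln went from 39.8 and 37.2 CPM in DuxKO to 0.642 and 0.771 CPM in DuxKO_P7OE (log2 fold change -5.76, SE 0.67, adjusted p = 1e-04). Acta2 went from 144 and 205 counts to 0 and 2, a ratio of 80.9 with a counting interval of 22.2 to 671 (adjusted p = 0.000974). The call was kept without DuxKO_P7OE replicate 1 (adjusted p = 0.0153) or replicate 2 (adjusted p = 0.00629), while the fitted Acta2 change, which at such counts depends on the prior count, was -5.27 and -10.53. Both DuxKO_P7OE libraries lay below both DuxKO libraries for both genes.

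Cnn2 was 80.4 and 82.1 CPM in DuxKO and 28.3 and 24.1 CPM in DuxKO_P7OE, and Tpm1 was 93.4 and 100.4 against 35.7 and 30.1 CPM. Their log2 fold changes were -1.63 (SE 0.18, adjusted p = 7.42e-05) and -1.56 (SE 0.23, adjusted p = 0.000598). Vcl fell by 1.03 on the log2 scale (SE 0.13, adjusted p = 0.000171), from 94.5 and 98.4 CPM to 50.2 and 44.2 CPM. Tpm2 fell by 0.69 (SE 0.18, adjusted p = 0.0149) but missed the threshold with any 1 of the 4 libraries left out, the smallest change being -0.67 without DuxKO replicate 3 (adjusted p = 0.0846). Srf, Myl9, Cnn1 and Actn1 did not pass.

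No member was called different between the groups with overexpressed Pramel7 with and without Dux. Pramel7 was higher in DuxKO_P7OE (49.3 and 56.7 CPM) than in P7OE (14.04 and 26.2 CPM). Dux loss and the Pramel7 level thus cannot be told apart in these comparisons. Total counts were also the lowest of the table in DuxKO_P7OE (11089600 and 10123058). In DuxKO_P7OE against P7OE, 0 of 10 members passed, where 0.0298% of genes did. At an unadjusted p under 0.05 there was 1 member, and DESeq2 called 0. The interaction of Dux loss and P7OE called 0 of 10 members, where 7.50% of genes passed. In it 2 members had an unadjusted p under 0.05, and DESeq2 called 1.

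Members were also low in the Pramel7 knockout, where 7 of 10 passed, each lower, against 5.55% of genes lower in the table. The median was -1.004, against 0.01 over all tested genes. Tagln was 3.71 and 3.38 CPM in P7KO, below every WT library (log2 fold change -2.75, SE 0.47, adjusted p = 0.00246). Tpm1 was 53.7 and 60.2 CPM (-1.06, SE 0.20, adjusted p = 0.00554), Cnn2 36.6 and 41.5 CPM (-0.91, SE 0.16, adjusted p = 0.00287) and Tpm2 11.1 and 12.4 CPM (-0.95, SE 0.15, adjusted p = 0.00152). For each of these genes P7KO lay between WT and P7OE. P7KO and P7OE share the WT libraries and were not tested against each other.

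The other calls in P7KO concern genes of few counts. Acta2 had 0 and 2 counts, a ratio of WT to P7KO of 17.7 with a counting interval of 4.68 to 149.5 (adjusted p = 0.0325). Myl9 had 4 and 12 counts (-2.37, adjusted p = 0.0356), and Cnn1 was 1.07 and 1.25 CPM (-1.75, adjusted p = 0.0417). Without P7KO replicate 1 only Tagln and Tpm2 of the 10 passed, and there Acta2 was -2.99 (adjusted p = 0.288), and Myl9 was -1.75 (adjusted p = 0.33), Cnn1 -1.66 (adjusted p = 0.299), Tpm1 -0.997 (adjusted p = 0.106) and Cnn2 -0.84 (adjusted p = 0.0762). Without P7KO replicate 2, 4 passed, with Acta2 -6.72 (adjusted p = 0.0915), Myl9 -3.42 (adjusted p = 0.0703) and Cnn1 -1.86 (adjusted p = 0.19) lost. Without WT replicate 4, 4 passed as well, with Acta2 (adjusted p = 0.0595), Myl9 -2.40 (adjusted p = 0.06) and Cnn1 -1.57 (adjusted p = 0.0884) lost. Against WT replicates 3 and 4 alone 8 passed, and against 5 and 6 alone 5, where Acta2 (adjusted p = 0.106) and Cnn1 (-1.03, adjusted p = 0.21) were lost. With only the groups compared, Acta2 (adjusted p = 0.0857) and Cnn1 (adjusted p = 0.0618) were lost. Single calls were also lost for Myl9 against WT replicates 3 and 4 alone (adjusted p = 0.0576), for Myl9 without WT replicate 5 (adjusted p = 0.0515) and for Cnn1 without WT replicate 3 (adjusted p = 0.0815). Vcl was 74.5 and 83.2 CPM, Srf 44.4 and 41.7 CPM and Actn1 114 and 125 CPM in P7KO. These 3 did not pass with all WT libraries, though some of them were among the 8 against WT replicates 3 and 4 alone.

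Markers of other cell types moved with these groups. The summed level of 10 primitive endoderm markers was 109 to 132 CPM in WT, 677 to 706 CPM in P7OE, 618 to 703 CPM in DuxKO_P7OE, and 82.6 to 84.5 CPM in P7KO. All 10 were higher in P7OE than in WT, where 11.0% of genes were higher, and all 10 in DuxKO_P7OE than in DuxKO, where 11.6% were. The summed level of 4 early mesoderm markers was 12.7 to 20.6 CPM in WT and 3.14 to 5.60 CPM in the other groups of the table, DuxKO included. The 11 fibroblast markers summed to 7.28 to 11.1 CPM in WT, 12.2 to 13.1 CPM in P7OE and 2.92 to 4.24 CPM in P7KO. Fap and Postn were at 0 in every library of the table, and Twist1 was the highest, at up to 10.2 CPM. Of the 4 fibroblast markers tested, 1 was called higher in P7OE than in WT, while their median log2 fold change was -0.65. The part of these cell types in the members' levels was not tested.

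Acta2 was the member called higher in Dux knockout cells of the Pramel7 table, and it also stood above WT in the genotype table. In the Pramel7 table it was 8.05 and 7.33 CPM in DuxKO against 0.606, 1.17, 0.231 and 0.318 CPM in WT, 13.1-fold higher (log2 fold change 3.71, SE 0.54, adjusted p = 0.000516). It was 1 of 10 members called higher, where 7.76% of genes were, and it kept the call in each of the 13 alternatives computed. Against WT replicates 3 and 4 alone 5 members passed, with Cnn1, Tpm1, Tpm2 and Srf lower beside the higher Acta2. Without WT replicate 6, 3 passed, Acta2 higher and Cnn1 and Tpm2 lower. In the genotype table, the contrast that was known when the list was made, Acta2 had 43 and 37 counts in DuxKO and 0 and 0 in WT, at least 13.6-fold higher with 3 counts set as the floor of each WT library. The DuxKO libraries of the 2 tables carry different replicate numbers, and the labels do not say whether they are the same clone.

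Tagln differed between the tables. In the genotype table it was 16.3 and 9.67 CPM in DuxKO against 1.64 and 1.11 CPM in WT, 9.42-fold in the fit. In the Pramel7 table it was 39.8 and 37.2 CPM in DuxKO against 9.92 to 35.8 CPM in WT, above every WT library but close to replicates 3 and 4, a change of 0.69 (SE 0.38) that missed the threshold (adjusted p = 0.254). It passed without the filter on low counts (adjusted p = 0.00355). Against WT replicates 5 and 6 alone Tagln was 1.64 higher (adjusted p = 9.39e-05), and against replicates 3 and 4 alone 0.07 higher (adjusted p = 0.742). The WT level of Tagln itself was thus 1.11 to 1.64 CPM in one table and 9.92 to 35.8 CPM in the other.

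**Figure D2:**
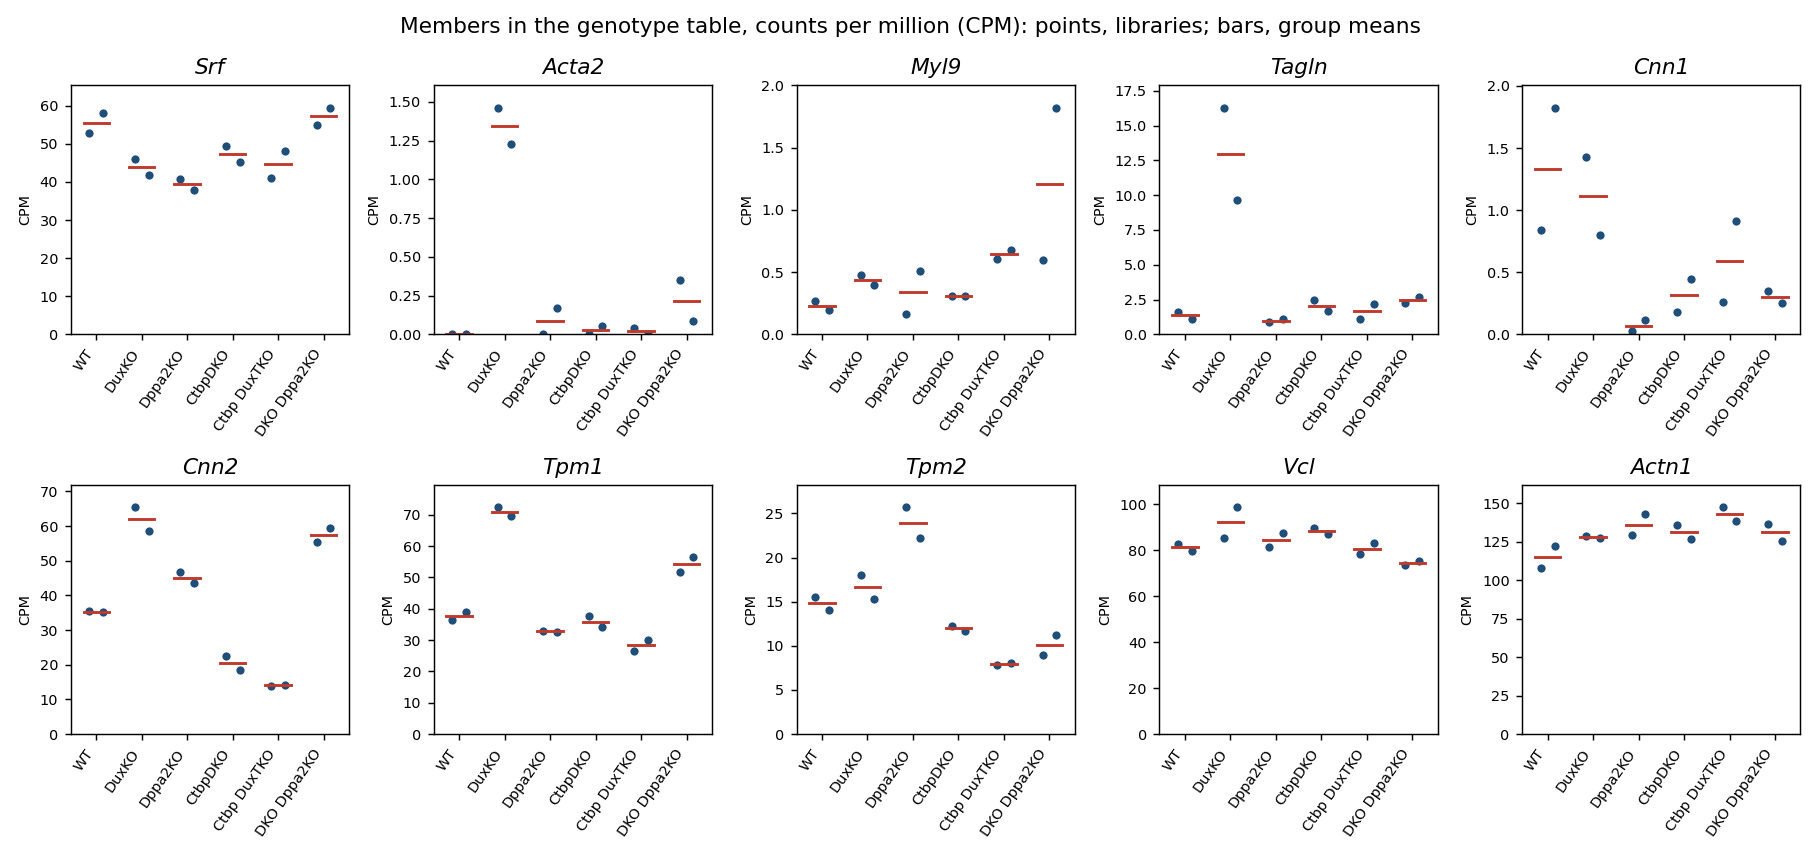
CPM of each member (panels, linear axes from 0) in the 12 libraries of the genotype table, by group; points are libraries and red bars are group means. Tagln, Acta2 and Tpm1 were highest in the 2 DuxKO libraries, and Cnn2 was 58.6 and 65.4 CPM there, 55.5 and 59.4 CPM in DKO_Dppa2_KO and 13.96 and 14.3 CPM in Ctbp_DuxTKO.

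The other members in DuxKO of the genotype table are given as description. Tpm1 was 72.4 and 69.6 CPM against 36.4 and 39.0 CPM in WT, and Cnn2 65.4 and 58.6 CPM against 35.5 and 35.2 CPM, in both cases with no overlap. Srf was 46.1 and 41.8 CPM against 52.7 and 58.1 CPM. Cnn1, Myl9, Tpm2, Vcl and Actn1 differed by 0.15 to 0.90 in size on the log2 scale. In this contrast 17.5% of all genes passed the threshold, and the members' median was 0.50 against -0.01 over all genes. Primitive endoderm markers summed to 159 to 161 CPM in DuxKO and 205 to 241 CPM in WT, with 7 of 10 called lower. Trophoblast markers summed to 11.7 to 12.7 CPM against 6.23 to 6.64 CPM, with 3 of 4 tested called higher, and pluripotency markers to 2167 to 2206 CPM against 2858 to 2861 CPM, with 4 of 8 called lower. Their part was not tested.

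Ctbp_DuxTKO against DuxKO uses the same DuxKO libraries whose high levels were known when the list was made, so it too is a description, and its directions are in part fixed by that choice. Over all genes 19.6% were called lower and 21.4% higher, and nothing is read from the members' share. Cnn2 was 13.96 and 14.3 CPM in Ctbp_DuxTKO against 65.4 and 58.6 CPM in DuxKO. Tagln was 1.13 and 2.17 CPM against 16.3 and 9.67 CPM, a fitted change of -2.95, and of -3.55 without Ctbp_DuxTKO replicate 2. Both genes were thus lower in both Ctbp_DuxTKO libraries, with no overlap. Tpm1 was 26.7 and 30.2 CPM against 72.4 and 69.6 CPM, and Tpm2 7.80 and 8.01 CPM against 18.03 and 15.3 CPM. Acta2 had 1 and 0 counts against 43 and 37, a ratio of 70.6 with a counting interval of 12.3 to 2824.

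Srf (41.1 and 48.1 CPM), Vcl (78.3 and 83.3 CPM), Actn1 (147 and 138 CPM), Cnn1 (6 and 27 counts) and Myl9 (14 and 20 counts) complete the values of Ctbp_DuxTKO. Primitive endoderm markers summed to 1031 to 1048 CPM in Ctbp_DuxTKO, the highest of the table, with all 10 called higher than in DuxKO. The 11 fibroblast markers summed to 12.7 to 14.4 CPM there and 5.69 to 6.36 CPM in DuxKO. In the genotype table Fap and Postn were at 0 and Thy1 was the highest of the 11, at up to 11.04 CPM. The part of these markers was not tested.

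Ctbp loss in cells with Dux touched the calponins. In CtbpDKO against WT, 2 of 10 members passed, both lower, where 11.4% of genes were lower. Cnn2 was 22.5 and 18.6 CPM against 35.5 and 35.2 CPM (-0.78, SE 0.11, adjusted p = 0.000126). Cnn1 had 6 and 16 counts against 25 and 56 (-2.06, SE 0.70, adjusted p = 0.0441), and missed the threshold without WT replicate 2 (-1.41, adjusted p = 0.306), CtbpDKO replicate 1 (-1.59, adjusted p = 0.241) or CtbpDKO replicate 2 (-2.83, adjusted p = 0.063). Tagln was 2.47 and 1.65 CPM against 1.64 and 1.11 CPM and did not pass. In the same comparison the 10 primitive endoderm markers had a median log2 fold change of 0.77, against 0.007 over all tested genes. These markers summed to 391.7 to 417 CPM against 205 to 241 CPM in WT. Fibroblast markers summed to 16.7 to 17.1 CPM against 5.74 to 6.07 CPM, and cardiac markers to 13.02 to 13.2 CPM against 3.15 to 4.63 CPM. Their part was not tested.

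Dux loss on top of Ctbp loss gave small differences. In Ctbp_DuxTKO against CtbpDKO, 2 of 10 members passed, both lower, where 4.54% of genes were lower. Cnn2 went from 22.5 and 18.6 CPM to 13.96 and 14.3 CPM (-0.54, SE 0.11, adjusted p = 0.0103) and Tpm2 from 12.3 and 11.7 CPM to 7.80 and 8.01 CPM (-0.60, SE 0.14, adjusted p = 0.0222). Tpm2 lost its call with any 1 of the 4 libraries left out, at adjusted p of 0.0691 without CtbpDKO replicate 2, 0.0723 without Ctbp_DuxTKO replicate 2, 0.124 without Ctbp_DuxTKO replicate 1 and 0.138 without CtbpDKO replicate 1. Cnn2 lost it without CtbpDKO replicate 1 (-0.39, adjusted p = 0.128) or Ctbp_DuxTKO replicate 1 (-0.53, adjusted p = 0.0721), and with only the groups compared in the fit (adjusted p = 0.0584). Tagln, which stood high in DuxKO alone, did not pass here (2.47 and 1.65 CPM in CtbpDKO, 1.13 and 2.17 CPM in Ctbp_DuxTKO). Acta2 had 0 and 2 counts in CtbpDKO and 1 and 0 in Ctbp_DuxTKO, too few for its test to decide anything. Primitive endoderm markers went from 391.7 to 417 CPM in CtbpDKO to 1031 to 1048 CPM in Ctbp_DuxTKO. Their median log2 fold change was 1.41, against 0.002 over all tested genes, and their part was not tested.

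Dppa2 loss moved members in both directions. In Dppa2KO against WT, 4 of 10 passed, where 16.4% of genes did. Tpm2 was higher, 25.7 and 22.2 CPM against 15.6 and 14.1 CPM (0.69, SE 0.14, adjusted p = 0.0041), and so was Cnn2, 46.6 and 43.5 CPM against 35.5 and 35.2 CPM (0.35, SE 0.11, adjusted p = 0.0383). Srf was lower, 40.8 and 37.9 CPM against 52.7 and 58.1 CPM (-0.49, SE 0.11, adjusted p = 0.00718), and so was Cnn1, with 1 and 4 counts against 25 and 56 (-4.17, SE 0.85, adjusted p = 0.00529). Each call was lost when some library was left out. Without WT replicate 2, only Cnn1 of the 10 passed, with Tpm2 0.62 (adjusted p = 0.0506), Srf -0.42 (adjusted p = 0.0742) and Cnn2 0.34 (adjusted p = 0.173). Cnn1 missed without Dppa2KO replicate 1 (-3.50, adjusted p = 0.0549), where Cnn2 had an adjusted p of 0.186, and was -5.39 without Dppa2KO replicate 2, where Srf (-0.44, adjusted p = 0.0541) and Cnn2 (adjusted p = 0.0667) missed. Cnn2 also missed without WT replicate 1 (adjusted p = 0.146) and with only the groups compared (adjusted p = 0.0506). Pluripotency markers summed to 3356 to 3764 CPM in Dppa2KO, with 4 of 8 called higher, and 3 of 10 primitive endoderm markers were called lower, and their part was not tested.

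With both Ctbp and Dppa2 lost, Cnn2 and Tpm1 were higher than with either loss alone, though Cnn2 only slightly above Dppa2KO (0.35 on the log2 scale). In DKO_Dppa2_KO against CtbpDKO, 2 of 10 passed, both higher, where 5.75% of genes were higher. Cnn2 was 55.5 and 59.4 CPM against 22.5 and 18.6 CPM, 2.79-fold (log2 fold change 1.48, SE 0.11, adjusted p = 3.32e-06). Tpm1 was 51.9 and 56.7 CPM against 37.7 and 34.1 CPM (0.60, SE 0.10, adjusted p = 0.00148). Against CtbpDKO both kept the call with each library left out in turn. Primitive endoderm markers summed to 207 to 217 CPM in DKO_Dppa2_KO against 391.7 to 417 CPM in CtbpDKO. Their median log2 fold change was -1.72, against -0.03 over all tested genes, and their part was not tested.

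In DKO_Dppa2_KO against Dppa2KO, 6 of 10 passed, where 30.4% of genes did. Tpm1 (0.73, adjusted p = 1e-04) and Srf (0.54, adjusted p = 0.0017) were higher and Tpm2 lower, at 8.92 and 11.2 CPM against 25.7 and 22.2 CPM (-1.25, SE 0.14, adjusted p = 2.11e-05). These 3 kept the call with each library left out in turn. Tagln (1.34, adjusted p = 0.0161) lost it without Dppa2KO replicate 1 (1.19, adjusted p = 0.0925) or DKO_Dppa2_KO replicate 2 (1.20, adjusted p = 0.0957), where in each case 3 members passed. Myl9, with 12 and 43 counts against 6 and 18 (1.85, adjusted p = 0.048), lost it without the same libraries (1.24, adjusted p = 0.274, and 0.82, adjusted p = 0.533) with only the groups compared (adjusted p = 0.0819), and was 2.86 without Dppa2KO replicate 2. Cnn2 (0.35, adjusted p = 0.0229) lost it with any 1 of the 4 libraries left out, at adjusted p of 0.0587 without Dppa2KO replicate 1, 0.135 without Dppa2KO replicate 2, 0.0507 without DKO_Dppa2_KO replicate 1 and 0.146 without DKO_Dppa2_KO replicate 2. Here 5 of 8 pluripotency markers were called lower (summed 2304 to 2433 CPM against 3356 to 3764 CPM), 3 of 5 tested cardiac markers higher, and of 10 primitive endoderm markers 3 higher and 5 lower, and their part was not tested.

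The interaction of Ctbp and Dppa2 loss tests whether Ctbp loss acted differently with and without Dppa2. It passed for 4 of 10 members, where 8.23% of genes passed. Ctbp loss went with lower Cnn2 in cells with Dppa2. In cells without Dppa2, Cnn2 was slightly higher (0.35), a call lost when any library of that comparison was left out. The 2 effects on Cnn2 differed by 1.13 (SE 0.15, adjusted p = 0.000891). The difference was 0.80 for Tpm1 (SE 0.14, adjusted p = 0.00421), 0.77 for Srf (SE 0.15, adjusted p = 0.00774) and -0.94 for Tpm2 (SE 0.20, adjusted p = 0.0113). Tpm2 missed the threshold without WT replicate 2 (-0.86, adjusted p = 0.0591). Tropomyosins Tpm1 and Tpm2 thus had differences of opposite sign.

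In the time course, Ctbp2 was high at days 3 and 9, and Tagln and Tpm1 were highest at day 9. Ctbp2 was 58.9 and 59.3 CPM at day 0, 544 and 573 at day 3, 310 and 296 at day 9, 49.4 and 44.7 at day 12 and 52.4 and 54.7 at day 18. Tagln was 2.79 and 1.83 CPM at day 0, 5.57 and 3.42 at day 3, 18.8 and 17.8 at day 9, 6.90 and 5.78 at day 12 and 1.70 and 2.19 at day 18. Tpm1 was 39.6 and 41.1, 43.3 and 48.0, 76.8 and 69.5, 43.9 and 47.2, and 35.8 and 40.7 CPM at the same days. Both libraries of day 9 stood above all other libraries for both genes.

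**Figure D3:**
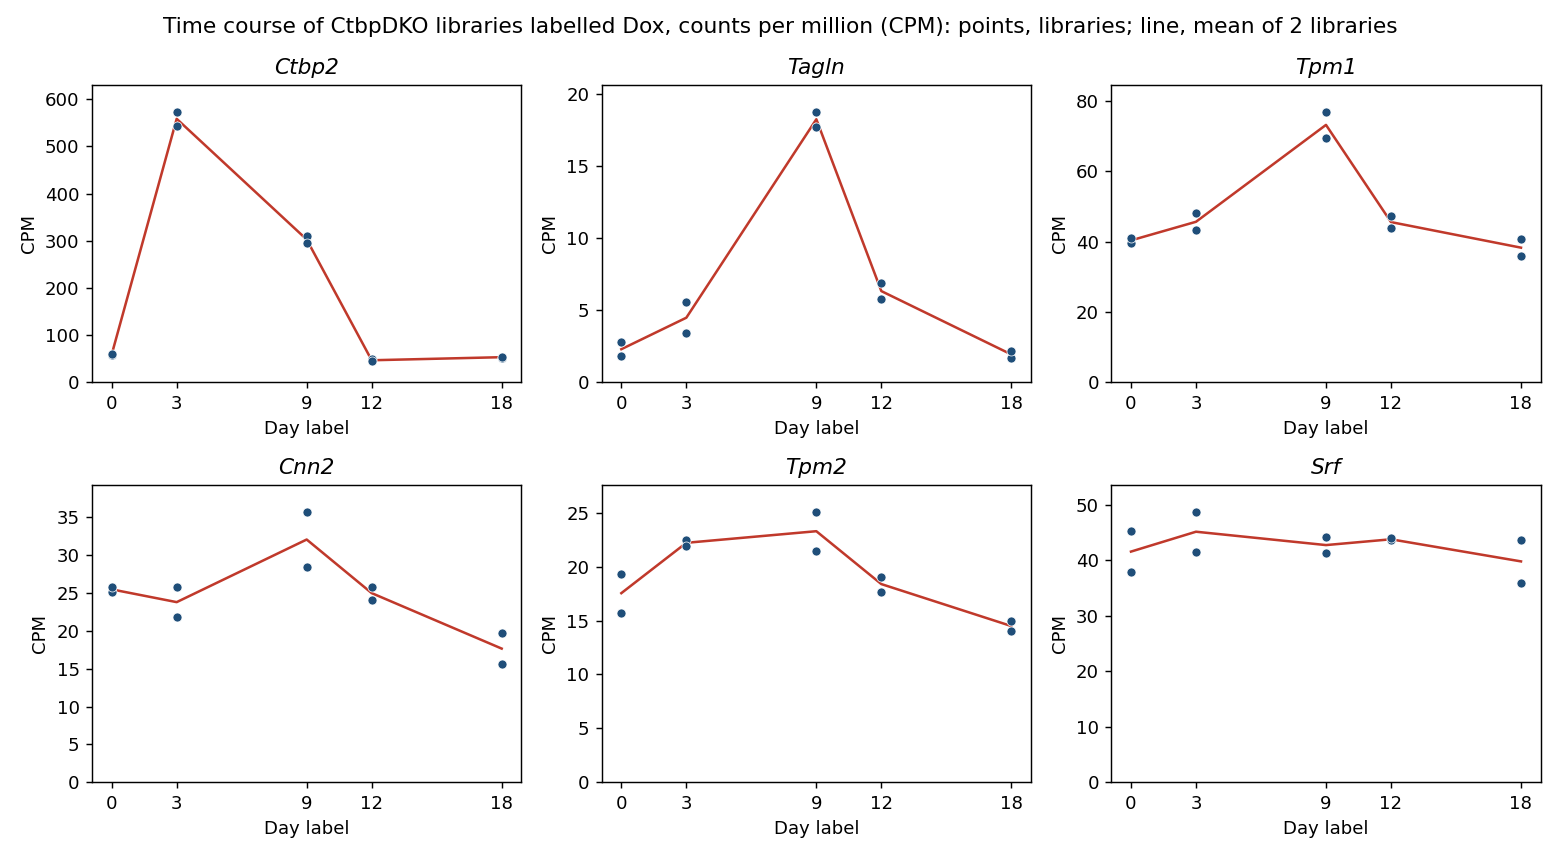
CPM (linear axes from 0) of Ctbp2 and of 5 members against the day label in 10 CtbpDKO libraries labelled Dox; points are libraries and the red line joins means of 2. Ctbp2 was highest at day 3 (544 and 573 CPM) and Tagln at day 9 (18.8 and 17.8 CPM), while Srf lay between 35.8 and 48.7 CPM on all days.

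From day 0 to day 3, 0 of 9 tested members passed, where 4.99% of genes did. At an unadjusted p under 0.05 there were 2 members, and DESeq2 called 1, Tagln. In edgeR Tagln was 0.97 higher (SE 0.28) and missed the threshold (adjusted p = 0.064), and it passed without day 3 replicate 2 (1.28, adjusted p = 0.04). From day 3 to day 9, 2 of 9 passed, both higher, where 0.524% of genes were higher. Tagln was 4.05-fold higher (log2 fold change 2.02, SE 0.25, adjusted p = 0.00271) and kept the call in each of the 9 alternatives. Tpm1 was 1.603-fold higher (0.68, SE 0.11, adjusted p = 0.0083), but missed the threshold without day 3 replicate 1 (0.61, adjusted p = 0.112), day 3 replicate 2 (0.76, adjusted p = 0.0515) or day 9 replicate 1 (0.61, adjusted p = 0.0803).

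From day 9 to day 12 the same 2 genes were lower, 2 of 9 members where 1.97% of genes were lower. Tagln fell by 1.53 on the log2 scale (SE 0.24, adjusted p = 0.00306) and Tpm1 by 0.68 (SE 0.11, adjusted p = 0.00306). Tagln missed the threshold without day 12 replicate 2 (-1.42, adjusted p = 0.0532), and Tpm1 without day 12 replicate 1 (-0.63, adjusted p = 0.0571). From day 12 to day 18, Tagln fell by a further 1.67 (SE 0.27, adjusted p = 0.0109), 1 of 9 where 0.180% of genes were lower. It missed the threshold without day 12 replicate 1 (-1.55, adjusted p = 0.0896) or day 18 replicate 1 (-1.52, adjusted p = 0.109), and with only the groups compared (-1.68, adjusted p = 0.0563). Between days 0 and 18, 0 of 9 members passed, where 0.514% of genes did, 2 had an unadjusted p under 0.05 and DESeq2 called 0.

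The remaining members showed no called change between neighbouring days. Cnn2 was 28.4 and 35.7 CPM at day 9 and 15.6 to 25.8 CPM on the other days, so that day 9 was again highest. Srf, Vcl and Actn1 lay at 35.8 to 48.7, 59.9 to 74.8 and 118 to 133 CPM over the 10 libraries. Acta2 did not pass the filter on low counts, with 12 and 6 counts at day 9 and 0 to 8 in the other libraries. Primitive endoderm markers summed to 231 to 238 CPM at day 9, the lowest of the course, and to 615 to 641 CPM at day 18, and early mesoderm markers to 2.78 to 3.88 CPM at day 9 and 0.679 to 2.34 CPM on the other days. Their part in the members' levels was not tested.

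**Figure D4:**
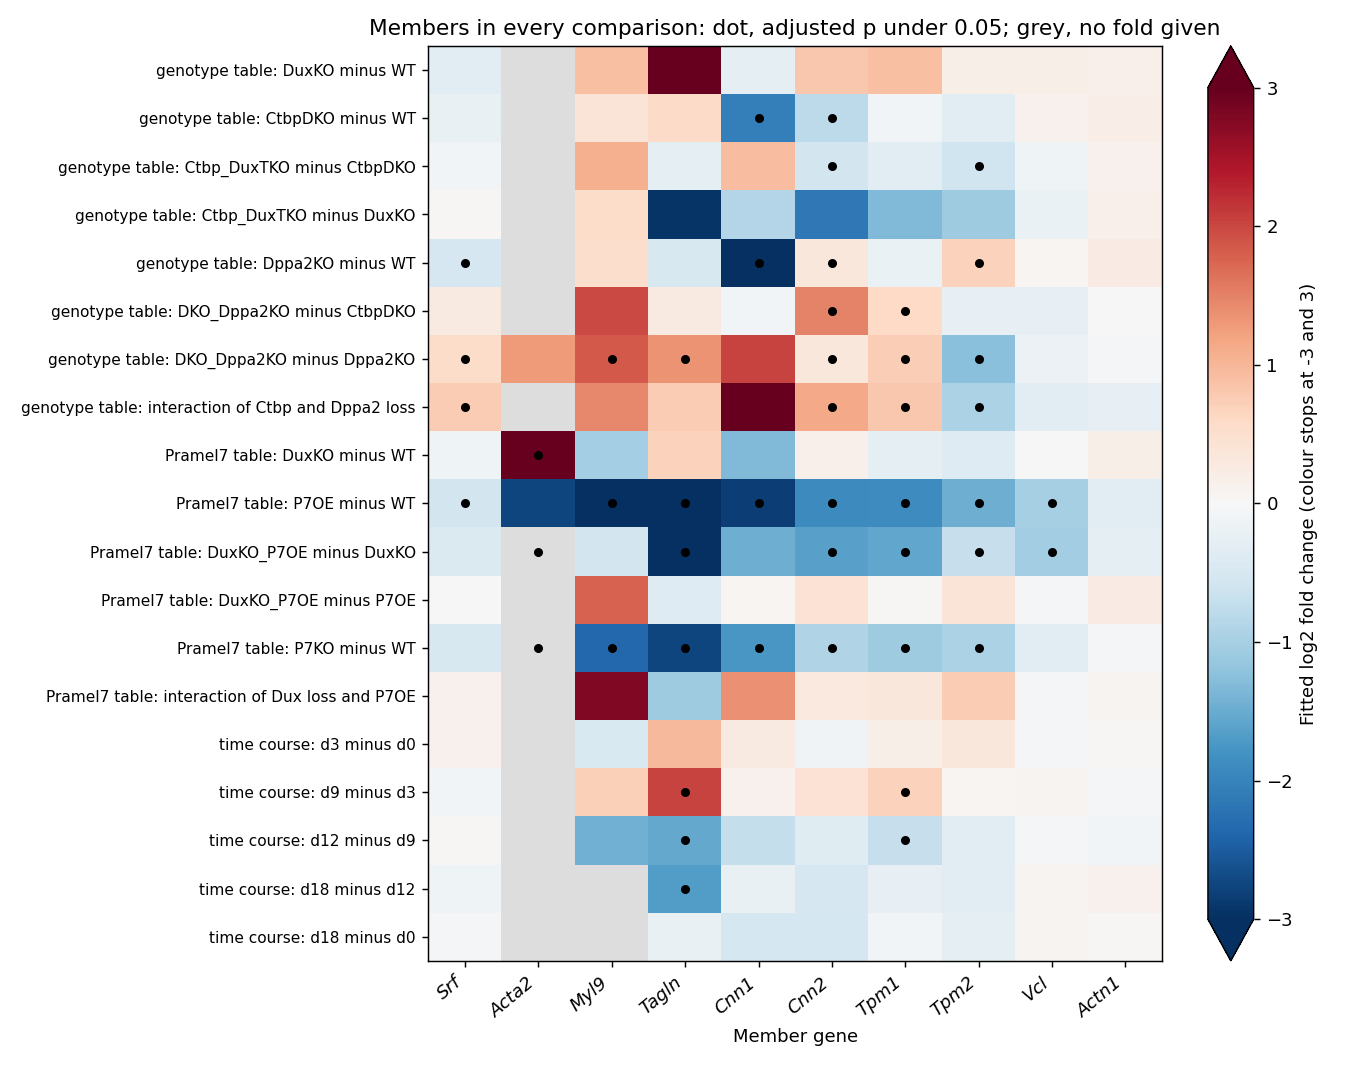
Fitted log2 fold changes (colour, from -3 to 3) of the 10 members (columns) in 19 comparisons (rows), with a dot where the adjusted p is under 0.05; grey marks cells with no fold, where the gene was not tested or a group held 3 or fewer counts. DuxKO against WT and Ctbp_DuxTKO against DuxKO of the genotype table are descriptions and carry no dots. Actn1 has no dot in any row, and Tagln has 7.

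Over all 34 libraries, Actn1 varied by 1.602-fold between its highest and lowest library, Srf by 2.08-fold and Vcl by 2.31-fold. Tpm2 varied by 3.29-fold, Tpm1 by 5.48-fold, Cnn2 by 6.28-fold and Tagln by 61.9-fold. For Actn1, Srf, Tpm1 and Cnn2 the highest and lowest library were in different tables, each scaled alone. Those folds may thus hold differences between tables. Acta2 ranged from 0 to 8.05 CPM, Myl9 from 0 to 1.82 CPM and Cnn1 from 0.0275 to 5.46 CPM. Among the members given as folds, Actn1, with no CArG box in the window, was narrowest, followed by Srf and Vcl, which have one. Cnn2, also with one, and Tpm1, with none, were among the wider.

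Within the Pramel7 table, log2 levels of Tagln over the 12 libraries went with those of Cnn2 (Pearson r = 0.97), Tpm1 (0.96) and Vcl (0.929), less with Tpm2 (0.887), Srf (0.882), Cnn1 (0.825) and Acta2 (0.796), and least with Myl9 (0.668) and Actn1 (0.647). These values describe libraries that share groups and carry no test. In the genotype table r was 0.856 for Tpm1 and 0.823 for Acta2 but 0.451 for Cnn2, and in the 10 libraries of the time course 0.913 for Tpm1 and 0.73 for Cnn2. The genotype values include the DuxKO libraries whose high Tagln was known when the list was made, and support nothing.

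Outside the members, the 5 genes most like Tagln over the 12 genotype libraries, among genes with a mean of at least 3 on the log2 CPM scale, were Lancl2 (r = 0.955), Slc7a6 (0.921), Nhsl1 (0.91), Ap1m1 (0.906) and Vps36 (0.906). In the Pramel7 table their r with Tagln was -0.199, 0.244, -0.559, 0.048 and -0.067. In the time course it was 0.388, 0.699, -0.302, 0.518 and 0.822. The likeness thus did not carry over to the Pramel7 table.

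Other genes of the Srf pathway were described from set lists, without a test of the lists. Among 28 tested cytoskeletal targets outside the 10 members, 8 were lower and 4 higher in P7OE than in WT, beside 8.90% and 11.0% of all genes, with a median of -0.35. Cald1, which encodes the actin-binding caldesmon, fell by 1.22 (adjusted p = 0.000245), Csrp1 by 1.31 (adjusted p = 0.00773) and Fhl1 by 0.91 (adjusted p = 0.00129), while Tgfb1i1 rose by 1.86 (adjusted p = 0.035). In P7KO 6 were lower and 2 higher, beside 5.55% and 3.93% of all genes, with a median of -0.18. Myh9, the non-muscle myosin heavy chain, fell by 1.85 (adjusted p = 1.73e-05), Csrp1 by 1.52 (adjusted p = 0.00587), Zyx by 1.36 (adjusted p = 0.00188) and Cald1 by 0.82 (adjusted p = 0.00504). In DuxKO_P7OE against DuxKO 7 were lower and 3 higher, beside 9.83% and 11.6% of all genes, with Csrp2 down by 1.46 (adjusted p = 2.76e-05) and Tpm4 by 1.36 (adjusted p = 0.000146) but Myh9 up by 2.42 (adjusted p = 2.13e-06) and Tgfb1i1 up by 2.21 (adjusted p = 0.0291).

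In Ctbp_DuxTKO against DuxKO, 10 of the 28 cytoskeletal targets were lower and 5 higher, beside 19.6% and 21.4% of all genes, with a median of -0.04 against 0.04 over all genes. Zyx, which encodes the adhesion protein zyxin, fell by 1.08 (adjusted p = 3.73e-05), while Myh9 rose by 2.79 (adjusted p = 3.74e-10), Csrp1 by 1.05 (adjusted p = 7.49e-06) and Itga5, an integrin, by 0.89 (adjusted p = 3.03e-06).

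The smaller lists stand beside 8.90% of all genes lower and 11.0% higher in P7OE, and 5.55% lower and 3.93% higher in P7KO. Of the immediate early targets, 2 of 7 were lower in P7OE, Egr1 by 1.56 (adjusted p = 0.0034) and Junb by 0.85 (adjusted p = 0.00226). In P7KO Egr1 fell by 2.07 (adjusted p = 0.00104) and Ier2 rose by 0.55 (adjusted p = 0.019). Of 5 tested Srf cofactors, Elk3 rose by 2.94 (adjusted p = 9.67e-06) and Mrtfb by 1.00 (adjusted p = 0.0165) in P7OE, and Elk3 by 2.70 (adjusted p = 3.42e-05) in P7KO. Of 6 targets of the Yap and Tead factors, which also answer to actin, Ccn1 fell by 1.58 (adjusted p = 0.000201) and Ccn2 by 1.01 (adjusted p = 0.000487) in P7OE, and 4 were lower in P7KO.

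Cardiac, skeletal muscle and trophoblast marker lists were low in each table. Cardiac markers summed to at most 17.7 CPM, skeletal muscle markers to at most 1.47 CPM and trophoblast markers to at most 29.2 CPM. Mature smooth muscle markers summed to 17.8 to 24.8 CPM in WT of the Pramel7 table and to 29.7 to 34.0 CPM in P7OE, where Smtn, which encodes smoothelin, rose by 0.70 (adjusted p = 0.00644). Smtn thus moved against the members there.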

How the data were processed

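RNA sequencing counts per gene were taken from 3 of the tables deposited by the authors. Per the submitters' processing notes, reads were trimmed with Trim Galore, aligned to mm10 with HISAT2 and counted with featureCounts. Versions are not given in the sources used here. A stranded kit was used per the labels' protocols; whether counting used strand is not given. A second deposited genotype table held the same counts (442208 of 442208 values) and was not used. Genes passing edgeR's filter on low counts (21193, 20161 and 20612) were fitted per table over all groups, with TMM scaling, quasi-likelihood tests in edgeR 4.0.16 (R 4.3.3) and Benjamini-Hochberg adjustment at 0.05. Alternatives used DESeq2 1.42.0, its size factors, no filter, only the groups compared, the replicate block, fewer libraries or some WT libraries. Counting intervals are exact at 95% and, like the floor of 3 counts, cover counting error only. The members and lists were chosen with earlier results of these data known. All 10 members are named, and of each further list at most 4 called genes per comparison, by size of change. Same-numbered libraries showed correlations of deviations from -0.098 to 0.092 and were not treated as pairs. Promoter sequences are from RefSeq (GRCm38.p6), with 9 of 10 members matched. The fit was tested on simulated data. Results of 2 of the further gene lists are not reported here.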

Additional observations from a re-analysis of the deposited data

Results flagged for a closer look

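4 of 10 members passed the test of whether Ctbp loss acted differently in cells with and without Dppa2, where 8.23% of genes passed. As differences of log2 fold changes they were Cnn2 (1.13), Tpm1 (0.80), Srf (0.77) and Tpm2 (-0.94). The Tpm2 call was lost without WT replicate 2 (-0.86).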

How the results depend on the processing

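The 52 member results past the test, with those of Ctbp_DuxTKO against DuxKO counted although the report only describes them, kept their direction in 527 alternative values, of which 459 stayed past the threshold and 68 did not. Of 123 member results not past it, 44 changed sign and 17 passed in at least 1 alternative. Numbers of members called differed as follows, the cause not tested. In DuxKO against WT of the Pramel7 table the number was 1, but 2 with DESeq2, 3 without the filter, 5 with the replicate block, 5 against WT replicates 3 and 4, 2 against 5 and 6, and 1 to 3 with a library left out. The 5 with the replicate block were Acta2 (3.10), Cnn1 (-1.89), Tpm1 (-0.62), Tpm2 (-0.53) and Srf (-0.38). Myl9 in DKO_Dppa2_KO against Dppa2KO lost its call with that block (adjusted p = 0.0577). The interaction of Dux loss and P7OE gave 0, but 1 with DESeq2 and 0 to 1 with a library left out. Ctbp_DuxTKO against CtbpDKO gave 2, but 1 with only the groups compared and 0 to 1 with a library left out. Day 3 against day 0 gave 0, but 1 with DESeq2, 1 without the filter and 0 to 1 with a library left out. Day 18 against day 12 gave 1, but 2 without the filter, 0 with only the groups compared and 0 to 1 with a library left out. Day 18 against day 0 gave 0, but 1 without the filter. With a library left out the number was 1 to 2 in CtbpDKO against WT, 1 to 3 in Dppa2KO against WT, 3 to 5 in DKO_Dppa2_KO against Dppa2KO, 5 to 10 in P7OE against WT, 2 to 8 in P7KO against WT, and 1 to 2 in day 9 against day 3 and day 12 against day 9. The members' median in DuxKO against WT of the genotype table was 0.496, and 0.509 to 0.589 with a library left out. Cnn1 there was -0.26, and 0.415 without WT replicate 2 (-0.734 to 0.415 with a library left out). Acta2, with 0 to 12 counts in each library of the time course, was not tested there.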
